A study of Mus musculus with 8 samples.

Results

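The first of a pair of short hairpins against Ybx1 (sh1Ybx1) was set against a non-targeting hairpin (shNT) in BaF3 cells, a mouse line of pro-B cells that depends on interleukin-3 for growth, carrying Jak2 with the V617F change that keeps this kinase active. RNA sequencing libraries were assigned by their titles, 2 to sh1Ybx1 and 4 to shNT, so 6 of the 8 libraries of the series entered the comparison, and all 13588 genes of the deposited count table were considered, of which 13552 passed the filter on low counts. The other hairpin (sh2Ybx1, 2 libraries) was not pooled with the first. All groups share the V617F change, the cell line and its medium, and the labels name neither the time after transduction nor a drug treatment. Whether a replicate was its own culture is not stated, so the p-values here reflect the spread among the sequenced samples, and that spread may be technical. One hairpin can also act on transcripts other than its target, which these libraries alone cannot show.

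The product of Ybx1 carries a cold shock domain, binds single-stranded RNA and DNA and is known for roles in mRNA packaging, stability, translation and splicing. Jak2 passes the signal of cytokine receptors to STAT transcription factors and to the RAS and ERK kinases, and the V617F change is the characteristic lesion of myeloproliferative neoplasms. A short hairpin is processed to a small RNA that guides the degradation of matching transcripts, so the level of Ybx1 mRNA reports whether the hairpin worked.

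Ybx1 (ENSMUSG00000028639, chromosome 4, 119277981 to 119294604, minus strand, GRCm38) was at 1731, 1631, 1607 and 1731 CPM in shNT replicates 1 to 4 (CPM is the count of a gene relative to the TMM-scaled size of its library). In the sh1Ybx1 libraries it was at 130 and 143 CPM. Both knockdown libraries thus lay far below every control, and 8.14% of the shNT level remained (log2 fold change -3.62, SE 0.189, edgeR quasi-likelihood test with Benjamini-Hochberg adjusted p = 0.000153). Permuting the labels of the 6 libraries in all 15 ways gave an exact two-sided p of 0.133, the lowest possible with groups of these sizes. The related cold shock gene Ybx3 was at 391, 411, 499 and 384 CPM in shNT and at 270 and 325 in sh1Ybx1, a difference that did not pass (log2 fold change -0.50, SE 0.176, edgeR adjusted p = 0.0815).

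Total counts were 26093847 to 37549926 in shNT and 22779437 and 23217610 in sh1Ybx1. The control libraries varied more than the knockdown libraries, with a biological coefficient of variation of 0.323 in shNT and 0.0760 in sh1Ybx1, and shNT replicate 4 stood apart on the second principal component (25.36% of the variance). Without that library the coefficient in shNT was 0.205. Many results below are given both with and without it. Of the 15 markers of pro-B cells and of this line, 8 were listed at 0 in the TPM table (levels corrected for transcript length) for all 6 libraries, among them Ebf1, Rag1, Rag2 and Il7r, whereas 7 had a value above 0 in at least 1 library, among them the interleukin-3 receptor genes Il3ra (23.8 to 46.1 TPM in shNT, 28.2 and 42.9 in sh1Ybx1) and Csf2rb and the B cell receptor genes Cd79a and Cd79b. A 0 in this table is weak evidence of absence, since a few genes with counts are listed near 0 there. All 6 fibroblast markers were listed at 0.

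Among the 13552 genes tested, 2601 passed an adjusted p of 0.05 (19.2%), 1522 of them higher (11.2%) and 1079 lower (7.96%), and 4791 had an unadjusted p under 0.05. Changes of 2-fold or more were seen for 1066 of the genes that rose and 426 of those that fell. In 2599 of the 2601 the libraries of the groups did not overlap, but over all genes tested both sh1Ybx1 libraries lay above all shNT libraries for 25.0% and below them for 21.0%. With limma on log2(TPM + 1) the balance turned, with 96 genes higher and 159 lower. The number of calls depended on single libraries. Without sh1Ybx1 replicate 1 or 2, which leaves a lone knockdown library assumed to vary like the other groups, 133 or 315 genes were higher and 23 or 70 lower, and without shNT replicate 4 the counts were 2892 (21.4%) and 3010 (22.3%), the shares beside which list counts without that library stand.

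**Figure D1:**
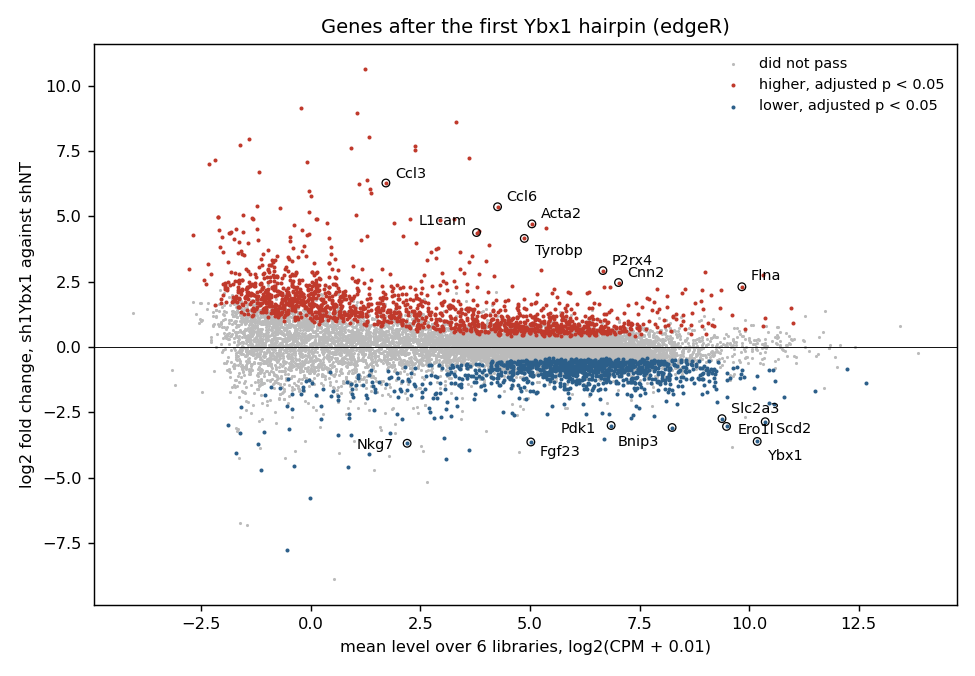
Each point is 1 of 13552 genes, with its mean level over the 4 shNT and 2 sh1Ybx1 libraries on the x axis, as log2(CPM + 0.01), and its log2 fold change in sh1Ybx1 against shNT on the y axis; the 1522 genes called higher are red, the 1079 called lower blue, and open circles mark genes named in the text. Ybx1 at -3.62 and Scd2 at -2.87 lie low among abundant genes, and Ccl3 at 6.27 and Acta2 at 4.71 lie high among genes of low mean level.

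Promoters are shown first for 3 groups described below that are textbook targets of transcription factors with known binding letters. Windows from 250 bases before to 50 bases after the transcription start were taken from RefSeq (GRCm38.p6) and searched on both strands, and 9465 of the tested genes had one. The windows printed were picked because they hold the letters. Bnip3 and Ldha are shown for the hypoxia and glycolysis groups, with the core ACGTG of the hypoxia response element in capitals (CACGTG holds it on both strands, and adjoining matches merge). Bnip3 lies at chr7:138909457-138909756 on the minus strand and Ldha at chr7:46845554-46845853 on the plus strand.
Bnip3: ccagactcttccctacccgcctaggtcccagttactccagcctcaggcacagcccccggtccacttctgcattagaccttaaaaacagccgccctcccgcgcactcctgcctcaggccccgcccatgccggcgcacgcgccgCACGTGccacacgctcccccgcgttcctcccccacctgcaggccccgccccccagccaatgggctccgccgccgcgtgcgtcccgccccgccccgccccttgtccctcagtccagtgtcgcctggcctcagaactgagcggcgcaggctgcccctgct
Ldha: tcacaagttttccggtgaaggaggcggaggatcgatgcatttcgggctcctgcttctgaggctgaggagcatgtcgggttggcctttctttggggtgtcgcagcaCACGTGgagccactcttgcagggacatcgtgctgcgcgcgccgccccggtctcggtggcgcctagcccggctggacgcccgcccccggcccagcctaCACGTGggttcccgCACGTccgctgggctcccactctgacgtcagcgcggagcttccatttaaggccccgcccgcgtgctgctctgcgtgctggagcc

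The ER chaperone genes Hsp90b1 (chr10:86705395-86705694, minus strand) and Pdia6 (chr12:17266339-17266638, plus strand) are shown for the unfolded protein group. The capitals mark the ER stress element, the letters CCAAT, then any 9 bases, then CCACG, on either strand.
Hsp90b1: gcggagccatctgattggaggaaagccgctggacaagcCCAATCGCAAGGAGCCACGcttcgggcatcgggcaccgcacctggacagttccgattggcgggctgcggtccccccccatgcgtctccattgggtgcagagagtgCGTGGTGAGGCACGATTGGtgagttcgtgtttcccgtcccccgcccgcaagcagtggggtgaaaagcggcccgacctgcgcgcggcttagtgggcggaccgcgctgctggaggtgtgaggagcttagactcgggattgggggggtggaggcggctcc
Pdia6: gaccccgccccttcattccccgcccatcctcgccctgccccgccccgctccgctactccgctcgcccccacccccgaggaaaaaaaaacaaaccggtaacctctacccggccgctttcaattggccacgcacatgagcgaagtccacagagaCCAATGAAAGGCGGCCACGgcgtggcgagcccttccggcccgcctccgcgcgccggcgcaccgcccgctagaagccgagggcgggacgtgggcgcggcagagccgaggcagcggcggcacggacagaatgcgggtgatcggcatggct

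The calponin gene Cnn2 (chr10:79988350-79988649, plus strand) and the cytoplasmic actin gene Actg1 (chr11:120348446-120348745, minus strand) are shown for the cytoskeletal group, with the CArG box of serum response factor in capitals.
Cnn2: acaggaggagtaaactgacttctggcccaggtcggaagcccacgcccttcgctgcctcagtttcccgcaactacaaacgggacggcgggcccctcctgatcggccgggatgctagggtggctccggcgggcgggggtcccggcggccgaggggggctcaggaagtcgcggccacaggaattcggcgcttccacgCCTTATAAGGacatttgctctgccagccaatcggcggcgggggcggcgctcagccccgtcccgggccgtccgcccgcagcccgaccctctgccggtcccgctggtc
Actg1: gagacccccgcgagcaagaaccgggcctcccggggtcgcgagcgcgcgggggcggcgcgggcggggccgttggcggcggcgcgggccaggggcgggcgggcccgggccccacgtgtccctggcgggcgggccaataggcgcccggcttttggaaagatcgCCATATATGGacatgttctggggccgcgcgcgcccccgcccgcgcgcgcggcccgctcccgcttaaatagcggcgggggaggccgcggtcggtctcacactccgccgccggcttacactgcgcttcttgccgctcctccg

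ACGTG was found in 13 of 17 genes of the hypoxia list and 13 of 18 genes of the glycolysis list that had a window, against 29.2% of tested genes and 19.6% of all windows. The full ER stress element, whose last letters CCACG can overlap ACGTG within CCACGTG, was found in 8 of 20 genes of the unfolded protein list, against 0.158% of tested genes and 0.119% of all windows. The CArG box was found in 5 of 28 cytoskeletal genes, against 1.43% of tested genes and 1.63% of all windows. Of the called members with a window, 8 of 9 hypoxia and 7 of 11 glycolysis genes held ACGTG and 3 of 13 cytoskeletal genes held the CArG box. The windows of Pdk1 and Pfkl had no ACGTG, those of P4hb and Xbp1 no full ER stress element, and those of Acta2, Tpm4 and Flna no CArG box. These lists hold genes chosen for such regulation, so the shares describe the lists, and a match is not a binding site.

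Genes induced by low oxygen and genes of glycolysis were lower with sh1Ybx1. Of the 21 hypoxia genes tested, 10 fell (47.6%, where 7.96% of all genes did) and 0 rose. Their median log2 fold change was -1.15 against 0.00 for all genes. In the list of glycolysis and glucose transport 12 of 19 fell (63.2%) and 0 rose, with a median of -1.49. Pdk1, a kinase that inhibits pyruvate dehydrogenase, was at 143, 107, 91.7 and 311 CPM in shNT and at 19.2 and 21.3 in sh1Ybx1. Bnip3, a receptor for the removal of mitochondria, was at 416, 367, 140 and 792 CPM in shNT and at 52.95 and 48.0 in sh1Ybx1. In both genes shNT replicate 4 was the highest library, and the knockdown libraries lay below every control with little spread between them. The log2 fold changes were -3.01 (SE 0.523, edgeR adjusted p = 0.00874) and -3.09 (SE 0.619, edgeR adjusted p = 0.0136). Ankrd37, an ankyrin repeat gene of the hypoxia response, and Ero1l, the oxidase that drives disulfide formation in the ER, also fell (log2 fold changes -3.93 and -3.04).

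The enzymes fell along most of the pathway, from glucose uptake to lactate. Slc2a3, a glucose transporter, was at 1106, 822, 293 and 1498 CPM in shNT and at 152 and 125 in sh1Ybx1 (log2 fold change -2.75, SE 0.585, edgeR adjusted p = 0.0163). The widely expressed transporter Slc2a1 fell from 117 to 575 CPM over the shNT libraries to 51.8 and 49.5 (log2 fold change -2.65). Phosphofructokinase Pfkl was at 468, 366, 325 and 624 CPM in shNT and at 90.4 and 104 in sh1Ybx1. It fell by 2.20 on the log2 scale (SE 0.286, edgeR adjusted p = 0.00332), and hexokinase Hk2, at the entry to the pathway, by 1.49. Triosephosphate isomerase Tpi1 was at 990, 808, 753 and 1276 CPM in shNT and at 234 and 274 in sh1Ybx1, and lactate dehydrogenase Ldha at 2310, 2110, 2014 and 3047 in shNT and at 585 and 669 in sh1Ybx1. Groups did not overlap for either enzyme, whose levels stood at 26.5% (Tpi1) and 26.4% (Ldha) of shNT (log2 fold changes -1.92 and -1.92, edgeR adjusted p = 0.00345 and 0.00234). Phosphoglycerate kinase Pgk1 (-2.152) and enolase Eno1 (-1.59) fell likewise.

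Other values moved with this group. The summed level of the hypoxia list was 4668, 3423, 2272 and 9469 CPM in shNT and 1605 and 1625 in sh1Ybx1, so the control libraries spread over a wide range and shNT replicate 4 was highest. Without it the median of the hypoxia list was -0.82 with 12 members lower, and that of the glycolysis list -1.26 with 17 lower. Without sh1Ybx1 replicate 1 or 2 no hypoxia gene passed (medians -1.17 and -1.24), and 0 or 3 glycolysis genes did (medians -1.41 and -1.58). Without shNT replicate 1, sh2Ybx1 replicate 1 or sh2Ybx1 replicate 2 the hypoxia count was 4. The part of oxygen or culture density in these values was not tested. With sh2Ybx1, against the same shNT libraries, 11 of 21 hypoxia genes and 15 of 19 glycolysis genes fell (medians -1.44 and -1.69), where 19.9% of all genes were called, 10.4% higher and 9.45% lower, and no member of either list passed the test between the hairpins.

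Mitochondrial transcripts did not fall with glycolysis. Of the 8 mRNAs of the mitochondrial genome with counts here 3 rose (37.5%) and 0 fell, with a median of 1.12. Their summed level was 18920, 12100, 6422 and 21410 CPM in shNT and 37130 and 20030 in sh1Ybx1, so the groups overlapped in the sum. Of 78 nuclear genes of oxidative phosphorylation 5 rose (6.41%, where 11.2% of all genes did) and 3 fell (3.85%, where 7.96% did). The median of the nuclear genes was 0.30. The complex I subunit gene mt-Nd4 was at 736, 549, 385 and 502 CPM in shNT and at 1676 and 870 in sh1Ybx1. Both knockdown libraries lay above every control but differed more from each other than the lower did from the highest control, and the rise had a log2 fold change of 1.23 (SE 0.305, edgeR adjusted p = 0.0275). Without sh1Ybx1 replicate 1 no mitochondrial mRNA passed and the median was 0.70, and without sh1Ybx1 replicate 2 it was 1.49 with 1 call. Calls also fell to 0 without shNT replicate 2, sh2Ybx1 replicate 1 or sh2Ybx1 replicate 2. Atp5e and Ndufa7, small subunits of ATP synthase and complex I, rose by 0.77 and 0.68, while Sdha, the flavoprotein of complex II, fell by 0.55 and Cox6a2, a subunit of cytochrome oxidase typical of muscle, by 4.28. Cox6a2 was at 4.61, 2.10, 9.60 and 33.5 CPM in shNT and at 0.851 and 0.418 in sh1Ybx1, and these nuclear genes lost their calls without either sh1Ybx1 library (log2 fold changes from -4.87 to -3.13 for Cox6a2 over all libraries left out in turn). The nuclear list held no call without shNT replicate 1 or without any sh1Ybx1 or sh2Ybx1 library, 1 without shNT replicate 3, and 13 rises and 11 falls without shNT replicate 4.

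Genes of protein folding in the endoplasmic reticulum (ER) were lower as a group. Of 23 genes of ER chaperones and the unfolded protein response 15 fell (65.2%, where 7.96% of all genes did) and 0 rose. The median was -0.99, and 22 of the 23 log2 fold changes were below 0. The transcription factor gene Xbp1, whose mRNA is cut by the ER sensor Ire1, was at 301, 274, 267 and 367 CPM in shNT and at 128 and 118 in sh1Ybx1 (log2 fold change -1.29, SE 0.176, edgeR adjusted p = 0.00390). The disulfide isomerase gene Pdia6 was at 307, 348, 258 and 329 CPM in shNT and at 126 and 120 in sh1Ybx1 (log2 fold change -1.34, SE 0.172, edgeR adjusted p = 0.00324). The chaperone gene Hsp90b1 was at 577, 675, 473 and 684 CPM in shNT and at 264 and 248 in sh1Ybx1 (log2 fold change -1.23, SE 0.199, edgeR adjusted p = 0.00676). In all 3 genes every control library lay above both knockdown libraries, and shNT replicate 4 was the highest for Xbp1 and Hsp90b1 but not for Pdia6. The sensor Atf6 fell by 1.37, the lectin chaperone Canx by 1.01, the disulfide isomerase P4hb by 2.18 and the main chaperone Hspa5 by 1.19.

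The promoters printed for Hsp90b1 and Pdia6 belong to this group, and 6 of the 12 members that fell and had a window held the full element. Without shNT replicate 4 the list's median was -0.97, with 19 members lower and 1 higher, and without sh1Ybx1 replicate 1 or 2 the medians were -1.07 and -0.92, with 0 and 1 member lower. With sh2Ybx1 17 of the 23 were lower.

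Genes of the amino acid stress programme and cytosolic chaperones were also lower. Of 22 genes of the Atf4 programme 10 fell (45.5%, where 7.96% of all genes did) and 0 rose, with a median of -1.13. Atf4, its transcription factor, was at 420, 438, 760 and 680 CPM in shNT and at 267 and 277 in sh1Ybx1 (log2 fold change -1.08, SE 0.273, edgeR adjusted p = 0.0296). Trib3, a pseudokinase gene that Atf4 induces, was at 120, 82.7, 358 and 323 CPM in shNT and at 30.9 and 35.9 in sh1Ybx1 (log2 fold change -2.73, SE 0.622, edgeR adjusted p = 0.0209). Here shNT replicates 3 and 4 were high and replicates 1 and 2 low, all above the knockdown libraries. The amino acid transporter Slc7a5 (-1.59), asparagine synthetase Asns (-1.36) and the tRNA synthetases Sars (-1.24) and Tars (-1.15) fell as well. Of 19 heat shock chaperones 5 fell (26.3%, median -0.43), among them the chaperonin subunit Cct2 (-0.98) and the cytosolic chaperone Hsp90ab1 (-0.86). Every call in both lists was lost without sh1Ybx1 replicate 1 or without replicate 2 (medians -1.03 and -1.19 for the Atf4 programme, -0.29 and -0.58 for heat shock), and without sh2Ybx1 replicate 1 or 2 the Atf4 programme held 3 or 5 calls. Heat shock calls numbered 3 without any one of shNT replicates 1 to 3 or of the sh2Ybx1 libraries, and without shNT replicate 4 the counts were 18 for the Atf4 programme and 9 for heat shock.

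Lipid synthesis genes fell, desaturases most. Scd2, a stearoyl-CoA desaturase that puts the double bond into saturated fatty acids, was at 2388, 1914, 1581 and 1526 CPM in shNT and at 273 and 236 in sh1Ybx1. All controls lay at several times the level of the knockdown libraries (13.7% of shNT, log2 fold change -2.87, SE 0.248, edgeR adjusted p = 0.000888). The desaturase gene Fads2 was at 274, 245, 214 and 302 CPM in shNT and at 77.6 and 74.6 in sh1Ybx1 (log2 fold change -1.76, SE 0.183, edgeR adjusted p = 0.00167). Srebf1, which encodes a transcription factor of fatty acid synthesis, fell by 1.33, and the elongase gene Elovl5 by 0.70. In all 6 of 12 fatty acid genes fell and 0 rose (median -0.81), and those of Scd2 and Fads2 were the 2 calls left without sh1Ybx1 replicate 1 and also without replicate 2.

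In the cholesterol list 9 of 24 members fell (37.5%, where 7.96% of all genes did) and 0 rose (median -0.45). Those that fell included Srebf2, which encodes the transcription factor of sterol synthesis (-0.86), and the enzyme genes Nsdhl (-1.07), Sqle (-0.97) and Mvd (-1.40). No cholesterol gene passed without sh1Ybx1 replicate 1 or without replicate 2 (medians -0.48 and -0.42), and 17 did without shNT replicate 4.

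**Figure D2:**
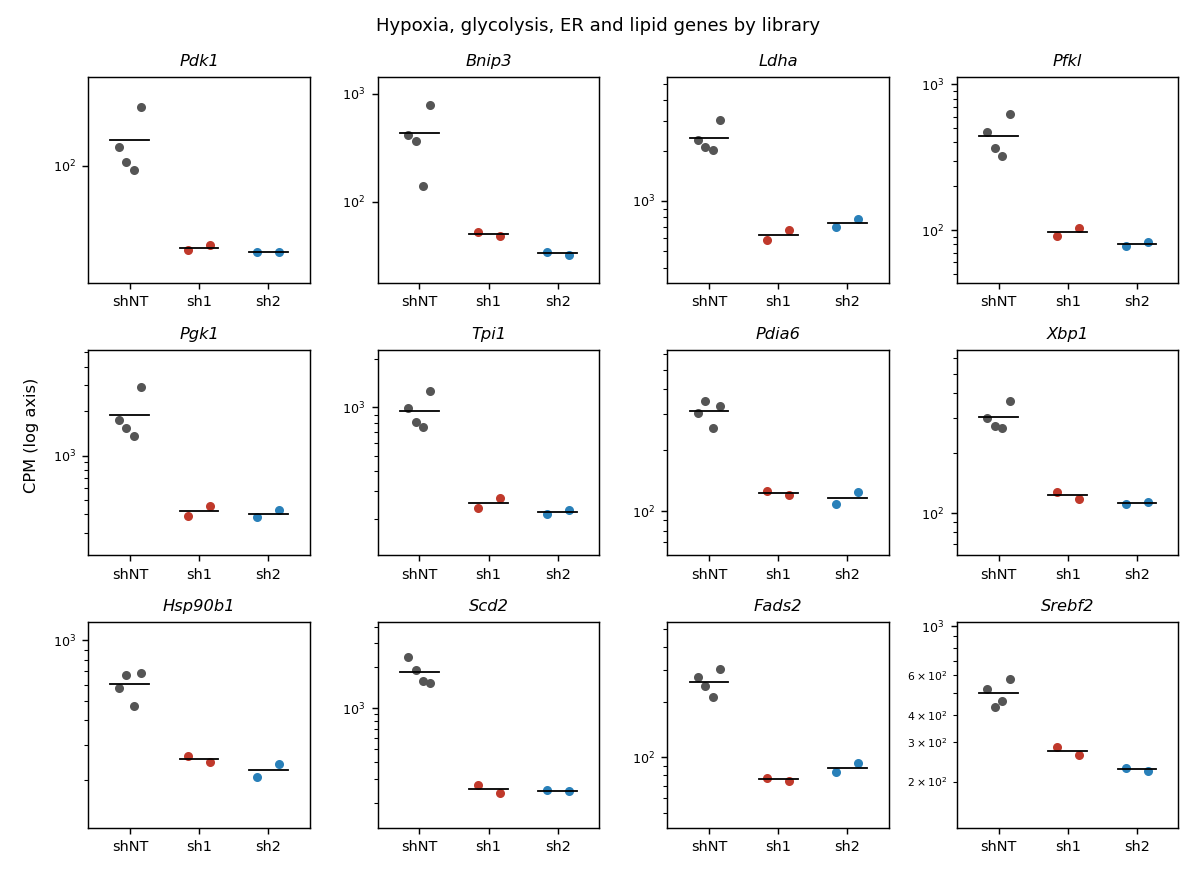
CPM on a log axis for 12 genes of the hypoxia, glycolysis, ER and lipid lists, with 1 point per library (4 shNT, 2 sh1Ybx1 and 2 sh2Ybx1) and a line at each group mean. In every panel both sh1Ybx1 points lie below all 4 shNT points and near the sh2Ybx1 points. Replicate 4 is the highest shNT point for Pdk1, Bnip3, Ldha, Pfkl, Pgk1, Tpi1, Xbp1, Hsp90b1 and Fads2, but not for Pdia6 and Scd2.

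Genes of the actin cytoskeleton rose with the first hairpin. In the list 15 of 32 tested members rose and 0 fell, with a median of 0.80, where 11.2% of all genes rose. Acta2, the actin of smooth muscle, was at 2.77, 4.02, 5.28 and 1.81 CPM in shNT, at 82.6 and 101 in sh1Ybx1 and at 3.22 and 2.88 in sh2Ybx1. Only the sh1Ybx1 libraries were high, and the sh2Ybx1 libraries lay among the controls. The log2 fold change was 4.71 against shNT (SE 0.349, edgeR adjusted p = 0.000409) and 4.91 against sh2Ybx1 (SE 0.47, edgeR adjusted p = 0.00705). Cnn2, a calponin that binds actin filaments, was at 60.1, 42.8, 43.6 and 60.6 CPM in shNT, at 265 and 306 in sh1Ybx1 and at 59.7 and 61.8 in sh2Ybx1. It rose by 2.46 against shNT (SE 0.184, edgeR adjusted p = 0.000409) and differed by 2.23 between the hairpins (SE 0.2304, edgeR adjusted p = 0.00885).

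Filamin A, which crosslinks actin filaments, is encoded by Flna and was at 317, 520, 556 and 186 CPM in shNT, at 1923 and 1972 in sh1Ybx1 and at 740 and 720 in sh2Ybx1. The rise with sh1Ybx1 (log2 fold change 2.30, SE 0.373, edgeR adjusted p = 0.00683) passed and the difference between hairpins (1.42, SE 0.456, edgeR adjusted p = 0.204) did not. Tropomyosin gene Tpm4 was at 85.1, 87.8, 67.6 and 68.7 CPM in shNT, at 162 and 156 in sh1Ybx1 and at 40.6 and 39.5 in sh2Ybx1. Its level therefore rose with 1 hairpin (1.04) and fell with the other (-0.95), with a difference of 1.99 that passed (edgeR adjusted p = 0.00705). The myosin light chain gene Myl12b (0.88) and the smooth muscle actin gene Actg2 (1.20) also passed both against shNT and between hairpins, and the reads of Actg2 and Acta2 may be shared with each other and with Actg1 and Actb, since actin genes are nearly alike. Actg1, a cytoplasmic actin, rose by 1.10, whereas Actb was at 3585, 3611, 3443 and 2092 CPM in shNT and at 2285 and 2776 in sh1Ybx1 and did not pass (-0.33, edgeR adjusted p = 0.385).

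Of the 32 cytoskeletal genes 5 passed the test between the hairpins, all higher with sh1Ybx1 (Acta2, Cnn2, Actg2, Tpm4 and Myl12b), where 0.465% of all genes did, and with sh2Ybx1 alone 5 rose and 3 fell (median -0.06). The tropomyosin gene Tpm2 had 3 counts over the 4 shNT libraries, 266 over the sh1Ybx1 and 526 over the sh2Ybx1 libraries. The ratio for sh1Ybx1 was 235, with a counting interval of 79.5 to 1146 (95%, exact binomial). With so few control counts Tpm2 passed the filter on low counts only through the knockdown libraries, so the direction of its change was fixed by that filter. The deposited TPM values also lie near 0 for this gene, so the files disagree on it. Leaving out sh1Ybx1 replicate 1 or 2 left 5 or 8 of the 15 calls (medians 0.89 and 0.76), those of Acta2 and Cnn2 among them, and 21 members rose and 1 fell without shNT replicate 4.

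Genes of myeloid cells rose further than any other list of 6 or more tested genes by its median (2.16). Of 20 tested members 13 were higher (65.0%, where 11.2% of all genes were) and 1 lower. Itgam, and possibly other members low in shNT, passed the filter on low counts only through the knockdown libraries. The direction of such a change was fixed by that filter. With genes at 5 TPM or above on average, 8 members remained, 6 of them higher and 1 lower (median 1.81). Tyrobp, an adaptor that carries signals from receptors of myeloid and natural killer cells, was at 8.14, 2.49, 2.33 and 4.84 CPM in shNT, at 88.0 and 69.5 in sh1Ybx1 and at 14.4 and 10.3 in sh2Ybx1. It rose by 4.15 with sh1Ybx1 (SE 0.464, edgeR adjusted p = 0.00202). The difference from sh2Ybx1 of 2.67 did not pass (SE 0.567, edgeR adjusted p = 0.0785). The metalloprotease gene Adam8 was at 4.91, 2.63, 1.78 and 2.35 CPM in shNT and at 45.9 and 42.3 in sh1Ybx1 (log2 fold change 3.92, SE 0.349, edgeR adjusted p = 0.000929). Itgam, the integrin chain that defines macrophages and granulocytes, was at 0.0279 to 0.272 CPM in shNT and at 7.62 and 7.02 in sh1Ybx1. The groups did not overlap for any of these genes, and the levels of Itgam remained low beside those of Tyrobp in count terms, which do not correct for length.

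Receptors for antibody tails were more abundant and rose less steeply. Fcgr3, an activating receptor, was at 240, 212, 199 and 350 CPM in shNT, at 635 and 524 in sh1Ybx1 and at 200 and 190 in sh2Ybx1 (log2 fold change 1.21, SE 0.231, edgeR adjusted p = 0.0115). The inhibitory receptor gene Fcgr2b rose by 2.29 and the shared signalling chain Fcer1g by 1.00. Fcgr2b and Fcgr3 resemble each other closely in their outer part, so reads may be split between them. The lysozyme gene Lyz2 rose to 12.4 and 8.65 CPM from 1.40 to 3.77 over the shNT libraries, and the cathepsin gene Ctss by 2.93. The growth factor receptor gene Csf1r rose by 3.28 and reached 2.04 and 1.59 CPM. Csf1r was near the floor in shNT (0 to 0.37 TPM), so the filter on low counts may have fixed its direction. The neutrophil protease gene Prtn3 fell from 7.32 to 17.8 CPM over the shNT libraries to 2.17 and 3.18 (log2 fold change -2.10, edgeR adjusted p = 0.0171).

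The rise did not cover the defining genes of one myeloid cell. Of 10 myeloid markers Itgax, Lyz1 and Elane were listed at 0 TPM in all 6 libraries, and the summed level of the 10 was 158 to 270 TPM in shNT and 438 and 523 in sh1Ybx1, the latter mostly from Fcer1g and Tyrobp. Of the 26 genes of the longer list 6 had no row in the count table analysed here, Cd14, Csf3r and Trem2 among them. In a bulk sample more cells of a type and more RNA of these genes per cell cannot be told apart. Leaving out sh1Ybx1 replicate 1 or 2 left 7 or 9 of the rises (medians 1.92 and 2.37), and the values without shNT replicate 4 were 14 higher and 1 lower. With sh2Ybx1 5 members rose (median 0.92), and Ccl6 was the 1 member that passed between the hairpins.

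Some chemokines and other secreted factors rose as well. Ccl6, a chemokine of mouse myeloid cells, was at 1.84, 1.29, 1.67 and 0.407 CPM in shNT, at 63.8 and 45.8 in sh1Ybx1 and at 4.21 and 6.71 in sh2Ybx1. It rose by 5.37 (SE 0.441, edgeR adjusted p = 0.000714) and differed by 3.33 between the hairpins (SE 0.527, edgeR adjusted p = 0.0435). Ccl3, an inflammatory chemokine, was at 0.134, 0.196, 0.0530 and 0.0905 CPM in shNT, at 8.85 and 10.3 in sh1Ybx1 and at 0.371 and 0.284 in sh2Ybx1 (log2 fold change 6.27, SE 0.377, edgeR adjusted p = 0.00019, difference between hairpins 4.86). Libraries of sh1Ybx1 alone were high for Ccl3, while for Ccl6 the sh2Ybx1 libraries also lay above every control. The interleukin genes Il1b and Il6 rose by 5.99 and 1.61, and Tgfb1, a growth inhibitory factor, fell by 1.02. In all 5 of 13 cytokine genes rose and 1 fell (38.5% and 7.69%, where 11.2% and 7.96% of all genes did, median 0.89). Of the 5, 2 (Ccl6 and Ccl9) are also counted in the myeloid list. The summed level of the 13 was 574 to 941 CPM in shNT and 605 and 570 in sh1Ybx1, so the sum was not higher with the knockdown. There were 7 rises and 2 falls without shNT replicate 4, and without sh1Ybx1 replicate 1 or 2 there were 4 or 5 rises and no fall.

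Some transcription factors of blood lineages went up and others down. Cebpe, a factor of granulocyte maturation, was at 27.4, 17.3, 18.1 and 21.3 CPM in shNT, at 93.3 and 102 in sh1Ybx1 and at 28.2 and 37.0 in sh2Ybx1. It rose by 2.21 with sh1Ybx1 (SE 0.2043, edgeR adjusted p = 0.00107) and differed between hairpins by 1.58 (SE 0.251, edgeR adjusted p = 0.0435). Cebpd, a related factor of the acute phase response, was at 32.9, 32.7, 31.0 and 41.01 CPM in shNT, at 66.9 and 76.3 in sh1Ybx1 and at 11.8 and 12.4 in sh2Ybx1. The sh1Ybx1 libraries lay above all controls and the sh2Ybx1 libraries below them, with a difference of 2.56 (edgeR adjusted p = 0.00404). Spi1, which encodes the myeloid factor PU.1, rose by 1.00, while the lymphoid factor Ikzf1 (-0.71), the basic helix-loop-helix factor Lyl1 (-1.04) and the stem and mast cell factor Gata2 (-0.76) fell. Cebpe kept its call whichever library was left out, and the other 5 lost theirs without sh1Ybx1 replicate 1 or 2 (log2 fold changes without shNT replicate 4 were 1.12 for Cebpd and 1.08 for Spi1). In all 3 of 18 rose and 4 fell (16.7% and 22.2%, where 11.2% and 7.96% of all genes did). The counts without shNT replicate 4 were 6 and 7, where 21.4% of all genes rose and 22.3% fell.

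**Figure D3:**
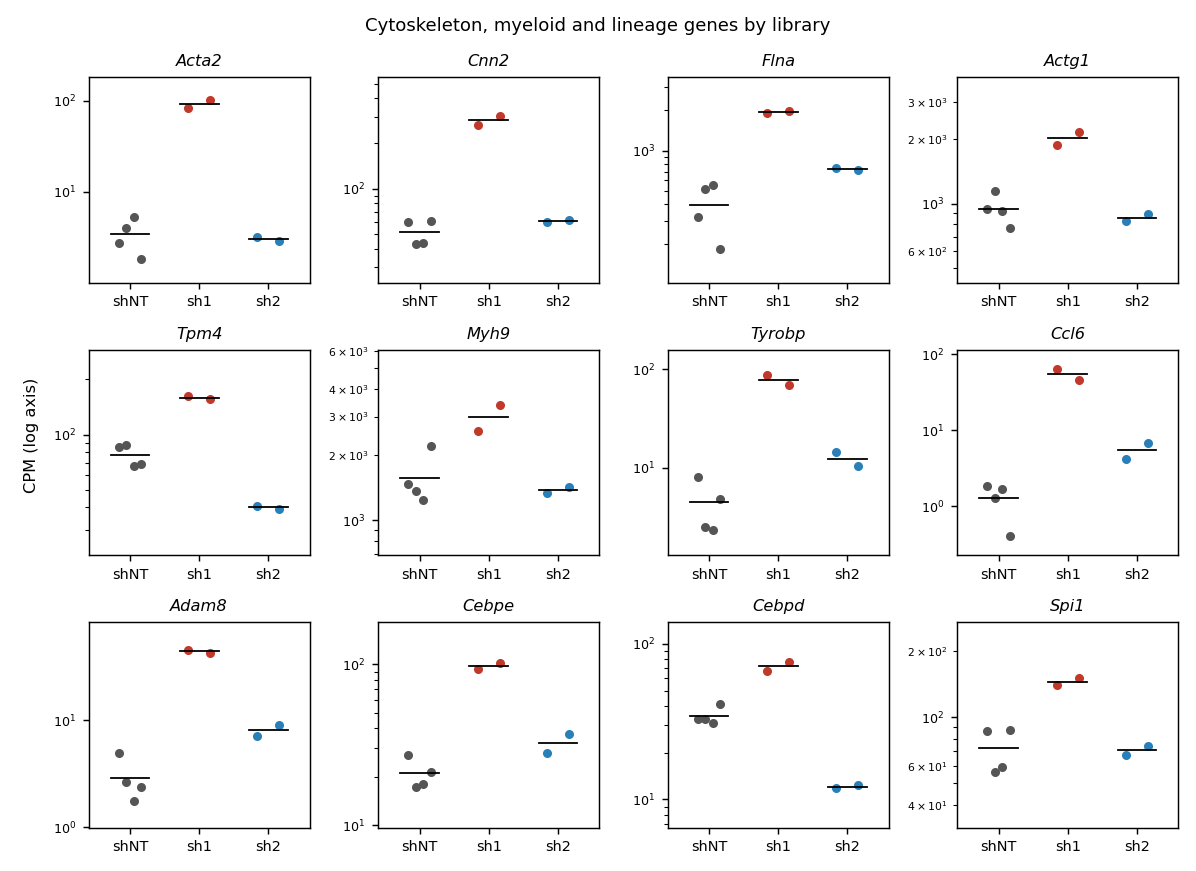
CPM on a log axis for 6 cytoskeletal, 3 myeloid and 3 lineage factor genes, with 1 point per library and a line at each group mean. The 2 sh1Ybx1 points lie above all 4 shNT points in each panel, whereas the sh2Ybx1 points lie among the shNT points for Acta2, Actg1 and Spi1 and below them for Tpm4 and Cebpd.

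Markers of other cell types moved with both groups in part. Of 7 mast cell and basophil genes 3 rose (42.9%, where 11.2% of all genes did) and 0 fell. The protease gene Cpa3, one of the 3, was at 6.04, 0.8103, 0.901 and 4.21 CPM in shNT and at 42.0 and 22.9 in sh1Ybx1 (log2 fold change 3.46, SE 0.719, edgeR adjusted p = 0.0151). Hpgds, another of the 3, was near the floor (0 to 0.21 TPM in shNT, 0.4 to 0.6 in sh1Ybx1). The log2 fold changes of 2 of the 7 were below 0. One of these is Hdc, the enzyme gene of histamine synthesis, which was at 3.57, 1.62, 2.65 and 13.04 CPM in shNT and at 1.96 and 2.05 in sh1Ybx1, so the groups overlapped (log2 fold change -1.365, edgeR adjusted p = 0.259). The summed level of the 6 mast cell markers was 0.820 to 16.3 TPM in shNT and 15.2 and 34.9 in sh1Ybx1, with Kit and Ms4a2 listed at 0. The part of mast cell genes in the rise of the myeloid list was not tested. Ptprc, the CD45 phosphatase carried by all white blood cells, rose by 1.35, and Nkg7, a granule protein of killer cells, fell from 9.51, 3.02, 3.31 and 10.6 CPM to 0.383 and 0.627 (log2 fold change -3.69). Gp9, a platelet glycoprotein gene, fell by 1.73, the 1 call among 11 erythroid and megakaryocyte genes (9.09%, where 7.96% of all genes fell). Each of these calls was lost without sh1Ybx1 replicate 1, and all but that of Ptprc without replicate 2 (without shNT replicate 4 the log2 fold changes were 3.66 for Cpa3, 1.47 for Ptprc, -3.39 for Nkg7 and -1.74 for Gp9).

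The genes with the highest and lowest changes overall came partly from outside these lists. Among those that rose most, the neural adhesion molecule gene L1cam was at 2.40, 1.17, 0.663 and 3.12 CPM in shNT and at 42.9 and 32.1 in sh1Ybx1 (log2 fold change 4.38, SE 0.4895, edgeR adjusted p = 0.00202). The signalling adaptor gene Traf1 was at 7.34, 5.17, 3.55 and 3.03 CPM in shNT and at 31.8 and 34.2 in sh1Ybx1 (log2 fold change 2.79, SE 0.312, edgeR adjusted p = 0.00202). Both held their calls whichever library was left out and had no overlap between groups. The mast cell receptor gene Milr1 (3.63), the adenosine receptor gene Adora2b (3.40), the surface antigen Cd52 (3.11) and the ATP-gated channel P2rx4 (2.92) also rose, and Milr1 and Adora2b lost their calls without either sh1Ybx1 library and Cd52 and P2rx4 without replicate 1. Among those that fell most, the hormone gene Fgf23 was at 51.9, 80.3, 42.3 and 12.4 CPM in shNT and at 3.24 and 4.26 in sh1Ybx1 (log2 fold change -3.64, SE 0.692, edgeR adjusted p = 0.0115). The selenium-binding protein genes Selenbp1 (-3.52) and Selenbp2 (-3.51) fell, but they are near-identical copies whose reads may be split between them, and shNT replicate 4 was far above the other controls for both (log2 fold changes of -2.51 and -2.48 without it). Fgf23, Selenbp1 and Selenbp2 lost their calls without either sh1Ybx1 library, Selenbp1 and Selenbp2 also without either sh2Ybx1 library, and Selenbp2 without shNT replicate 1.

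Jak2 did not pass, and how many genes of its signalling lists did depended on shNT replicate 4. Levels of Jak2 were 1463, 1614, 1250 and 1064 CPM in shNT and 1378 and 1246 in sh1Ybx1, and the groups overlapped (log2 fold change -0.04, edgeR adjusted p = 0.911). Stat5a (-0.08) and Il3ra (0.18) did not pass either. In the list of the interleukin-3 receptor, JAK and STAT genes 2 of 18 fell (11.1%, where 7.96% of all genes did), among them the kinase gene Jak3 (-0.57). Of 11 STAT5 targets 4 fell (36.4%, where 7.96% of all genes did, median -0.58). Among the 4 were the cyclin gene Ccnd2 (-1.61) and the kinase gene Pim2, which was at 110, 255, 457 and 77.0 CPM in shNT and at 30.7 and 42.8 in sh1Ybx1. All of these calls were lost without either sh1Ybx1 library (medians of the STAT5 list -0.53 and -0.64), and without shNT replicate 4 the receptor, JAK and STAT list held 5 falls and 1 rise and the STAT5 list 6 falls.

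In the RAS, RAF, MEK and ERK list 2 of 27 rose (7.41%, where 11.2% of all genes did) and 4 fell (14.8%, where 7.96% did). The median was -0.11, and 0.00 by limma on FPKM. Map2k1, which encodes the kinase MEK1, was at 239, 195, 154 and 305 CPM in shNT and at 70.0 and 81.9 in sh1Ybx1 (log2 fold change -1.56, SE 0.272, edgeR adjusted p = 0.00889). The counts without shNT replicate 4 were 6 and 6. Of 19 ERK response genes 4 fell (21.1%, where 7.96% of all genes did, median -0.86). The falls numbered 13 without shNT replicate 4 (median -1.12), where 22.3% of all genes fell, and 12 by DESeq2. Dusp4, a phosphatase that ERK induces and that acts on it, was at 194, 210, 225 and 348 CPM in shNT and at 46.1 and 50.8 in sh1Ybx1 (log2 fold change -2.34, SE 0.268, edgeR adjusted p = 0.00216). Myc fell by 1.03. Without sh1Ybx1 replicate 1 none of the genes of these lists named here passed (log2 fold change of -2.27 for Dusp4), and without replicate 2 Dusp4 did.

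Bcl2, the antiapoptotic gene, was at 495, 308, 411 and 386 CPM in shNT and at 110 and 118 in sh1Ybx1 (log2 fold change -1.81, SE 0.212, edgeR adjusted p = 0.00225). It was the 1 of 11 tested BCL2 family genes that passed (9.09%, where 7.96% of all genes fell). Its call was lost without sh1Ybx1 replicate 1. Mcl1 (-0.09) and Bcl2l1 (-0.85, edgeR adjusted p = 0.108) did not pass. Of 34 genes of DNA replication and mitosis 1 fell (2.94%, where 7.96% of all genes did), the checkpoint kinase gene Bub1 (-1.24). The median of the 34 genes was -0.46. Without shNT replicate 4, 24 of them fell (median -0.72). Of 20 p53 targets 2 rose (10.0%, where 11.2% of all genes did), the kinase gene Plk3 (0.92) and the death receptor gene Tnfrsf10b (0.83). The median of these targets was -0.21. The p53 list had a median of 0.15 without shNT replicate 4, with 5 rises and 3 falls. Bub1, Plk3 and Tnfrsf10b lost their calls without either sh1Ybx1 library.

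Some genes of RNA-binding proteins fell. In the list of hnRNPs and other splicing regulators 12 of 39 fell and 2 rose (30.8% and 5.13%, where 7.96% and 11.2% of all genes did, median -0.37). In the core spliceosome list 1 of 32 fell (3.12%), Snrpa of the U1 particle (-0.75), with a median of -0.30. Without shNT replicate 4 the regulators held 24 falls and 4 rises (median -0.45) and the core spliceosome 19 falls (median -0.49). Hnrnpul1, an hnRNP of the nuclear matrix family, was at 368, 319, 371 and 427 CPM in shNT, at 105 and 118 in sh1Ybx1 and at 184 and 208 in sh2Ybx1 (log2 fold change -1.74, SE 0.176, edgeR adjusted p = 0.00165). Both knockdown groups lay below every control, the first hairpin lower, and the difference of -0.82 between them did not pass (edgeR adjusted p = 0.0919). Hnrnpa1, which represses exons, fell by 1.15, Mbnl1 by 0.79 and Ptbp3, a paralog of the polypyrimidine tract protein, by 0.94.

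Of 18 SR proteins and their kinases 1 rose, Srsf6 (0.84), which binds exon enhancers, a share of 5.56% beside 11.2% of all genes. Its call was lost without shNT replicate 1 and without any one sh1Ybx1 or sh2Ybx1 library. Of 36 translation factors 8 fell (22.2%, where 7.96% of all genes did) and 0 rose (median -0.24). One of the 8, the elongation factor gene Eef2, was at 7316, 5348, 6917 and 12950 CPM in shNT and at 2863 and 3325 in sh1Ybx1 (log2 fold change -1.39, SE 0.355, edgeR adjusted p = 0.0300). Of 79 cytosolic ribosomal protein genes 1 rose and 1 fell (1.27% each, where 11.2% and 7.96% of all genes did, median 0.11). Without shNT replicate 4 the ribosomal protein genes held 17 rises and 3 falls (median 0.23) and the translation factors 15 falls and 1 rise. Without sh1Ybx1 replicate 1 or 2 the splicing regulators held 1 or 2 falls and the translation factors 0. Hnrnpul1 kept its call throughout.

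**Figure D4:**
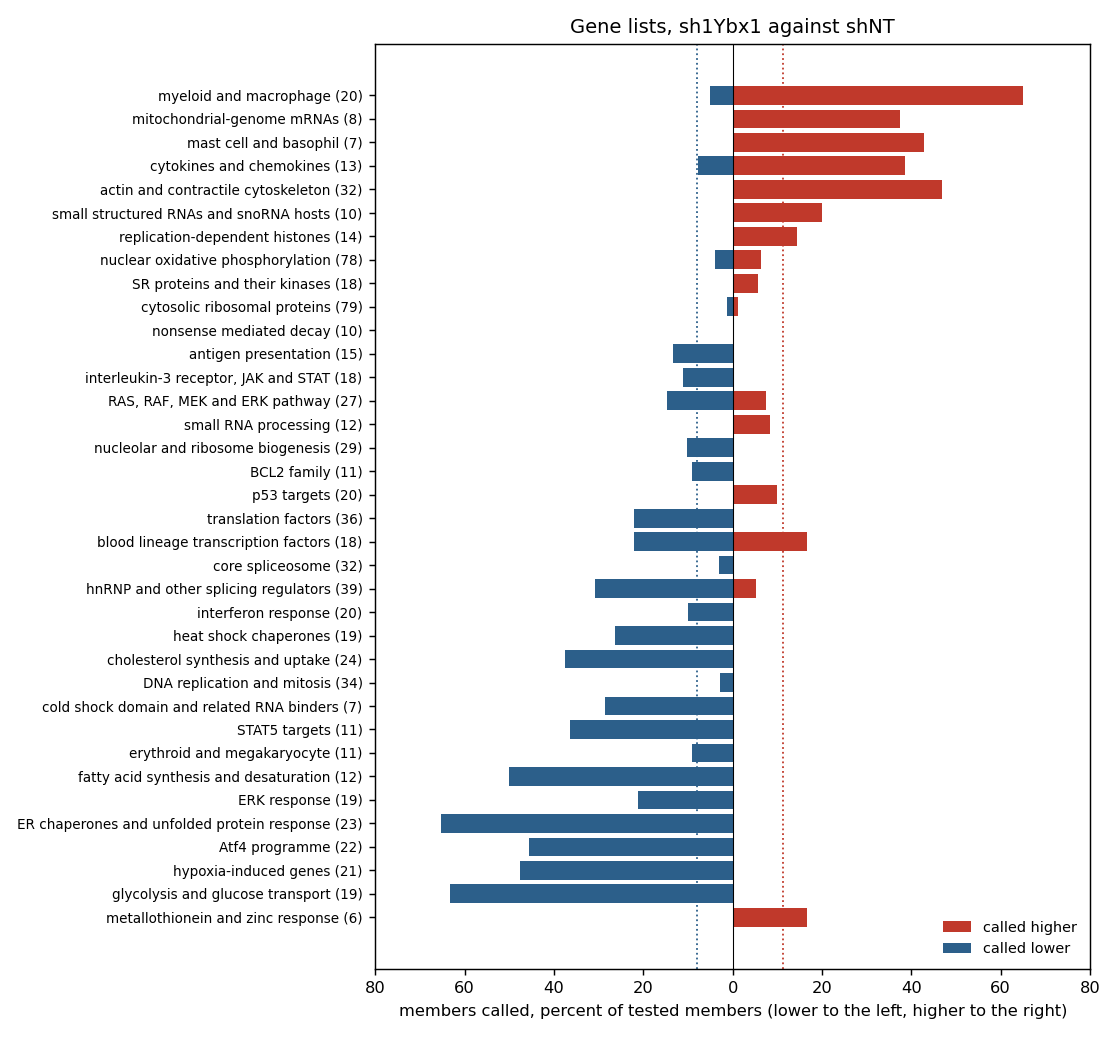
Percent of tested members of each gene list with 6 or more tested members (number in parentheses) called higher, to the right, or lower, to the left, in sh1Ybx1 against shNT, with lists in order of their median log2 fold change. Dotted lines mark 11.2% and 7.96%, the shares over all genes, and the glycolysis and ER lists reach furthest to the left and the myeloid and actin lists furthest to the right.

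The hairpins were compared directly to see which of these values belonged to the first one. Of the 13552 genes 71 passed between sh1Ybx1 and sh2Ybx1 (0.524%), 63 higher (0.465%) and 8 lower (0.059%) with sh1Ybx1, and 1901 had an unadjusted p under 0.05. Of the 2601 genes called for sh1Ybx1, 54 also passed this test, and 181 had the opposite sign with sh2Ybx1. Clec4e, a receptor for fungal and mycobacterial sugars on macrophages, was at 39.6, 37.6, 33.8 and 43.3 CPM in shNT, at 174 and 146 in sh1Ybx1 and at 23.8 and 26.5 in sh2Ybx1. The first hairpin was above and the second below every control, and the difference was 2.67 (SE 0.188, edgeR adjusted p = 0.00404). The iron-binding protein gene Lcn2 was at 0.601, 3.27, 0.875 and 0.860 CPM in shNT, at 20.1 and 19.1 in sh1Ybx1 and at 0.371 and 0.426 in sh2Ybx1, a difference of 5.60 (SE 0.853, edgeR adjusted p = 0.0426). Plaur, the receptor of the urokinase protease, differed by 2.65.

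Rras, a small GTPase gene, differed between the hairpins by 2.61 but did not pass for sh1Ybx1 against shNT (0.64, edgeR adjusted p = 0.189). Lower with the first hairpin than with the second were Frmd6, a scaffold of the Hippo pathway, and Anln, an actin-binding protein of cell division. Frmd6 was at 40.01, 41.1, 41.9 and 43.1 CPM in shNT, at 12.4 and 13.0 in sh1Ybx1 and at 31.4 and 34.4 in sh2Ybx1, a difference of -1.37 (SE 0.149, edgeR adjusted p = 0.0112). Anln was at 92.7, 92.2, 82.2 and 77.5 CPM in shNT, at 55.2 and 58.3 in sh1Ybx1 and at 132 and 136 in sh2Ybx1, so the controls lay between the hairpins (difference -1.24, edgeR adjusted p = 0.0297). Hemgn, a nuclear protein of blood progenitors, Slamf1, a lymphocyte surface receptor, the lipid phosphatase gene Plpp2 and the adaptor gene Sla2 differed by -1.54, -1.44, -1.22 and -1.12. Without either sh1Ybx1 library, or either sh2Ybx1 library, at most 2 genes passed between the hairpins, without shNT replicate 1, 2 or 3 the count was 19, 24 or 39, and without shNT replicate 4 it was 1666.

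The larger gene types outside protein-coding genes were called higher more often than lower, but not all at a share far above the 11.2% of all genes. Of 226 genes of the type TEC, transcripts whose status is still to be checked by experiment, 85 rose (37.6%) and 1 fell (median log2 fold change 1.09). Of 399 antisense genes 99 rose (24.8%) and 4 fell (median 0.69). Of 403 lincRNA genes 69 rose and 10 fell, of 85 snoRNA genes 13 rose and 0 fell, and of 11283 protein-coding genes 1083 rose and 1033 fell. The rises and falls without shNT replicate 4 were 120 and 3 for TEC, 165 and 14 for antisense, 135 and 26 for lincRNA, 30 and 0 for snoRNA and 2146 and 2871 for protein-coding genes. No source used here names the strand setting of the counting, and an antisense or intronic gene may therefore share reads with its partner. The nuclear RNA Malat1 was at 197, 174, 127 and 703 CPM in shNT and at 1564 and 1182 in sh1Ybx1 (log2 fold change 2.19, SE 0.603, edgeR adjusted p = 0.0380). Its call was lost when any library other than shNT replicate 4 was left out, without which the value was 3.02.

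**Figure D5:**
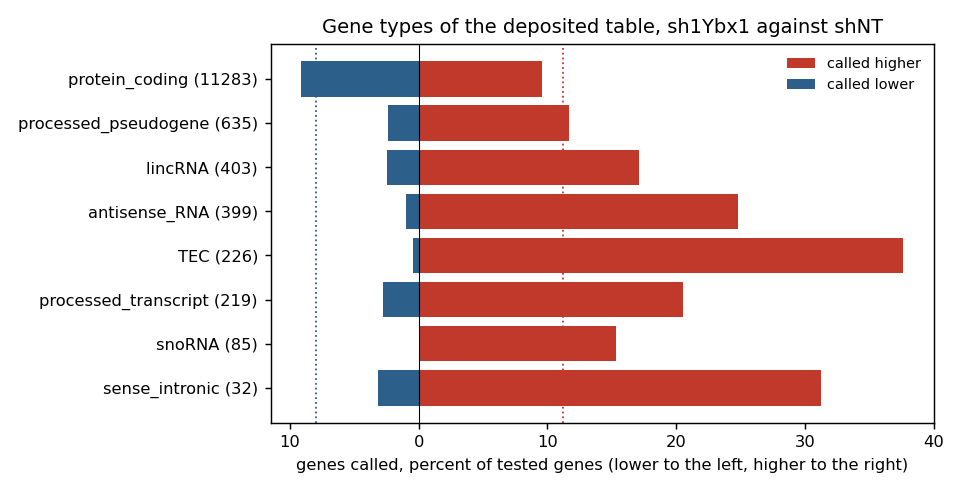
Percent of tested genes of 8 gene types of the deposited table (number in parentheses) called higher, to the right, or lower, to the left, in sh1Ybx1 against shNT. The dotted lines mark 11.2% and 7.96%, the shares over all genes; TEC, sense intronic and antisense genes lie furthest beyond the first, and protein-coding genes are about balanced.

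A few genes had no counts at all in the controls. Of the 13552 genes 6 were at 0 in all 4 shNT libraries. Such genes passed the filter on low counts only through the knockdown libraries, so the direction of their change was fixed by that filter. The same holds for Rbfox2 below and for Itgam and Ccl3 above, whose control levels lay under the filter. Clec7a, typed as a polymorphic pseudogene in the deposited annotation, is known as a receptor for fungal glucans on macrophages. It had 52 counts over the sh1Ybx1 and 13 over the sh2Ybx1 libraries. The sh1Ybx1 level was at least 45.9-fold higher than the level that 3 counts over the shNT group would give. The processed pseudogene Gm13418 had 332 and 623 counts (at least 293-fold higher in sh1Ybx1), and the kinase gene Map4k4 had 30 and 80 (at least 26.5-fold). The splicing regulator Rbfox2 had 1 count over the shNT, 61 over the sh1Ybx1 and 100 over the sh2Ybx1 libraries, a ratio of 162 for sh1Ybx1 (95% interval 27.9 to 6482). These intervals and bounds cover counting error only. The TPM values of Rbfox2 and Gm13418 lie near 0 in the deposited table, so the files disagree on them, and reads of a pseudogene may come from its parent gene.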

How the data were processed

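Polyadenylated RNA of 8 libraries was sequenced on a NextSeq, per the labels' protocols. Tools named per the submitters' processing notes are RSEM, limma, featureCounts and STAR, with builds mm9 and GRCm38, all without versions or roles. The authors deposited raw counts per gene, TPM values and FPKM values. Coordinates are from GENCODE annotation on GRCm38.

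Counts were tested with edgeR 4.0.16 (R 4.3.3): TMM scaling, filterByExpr, 1 fit of 3 group means over all 8 libraries, quasi-likelihood test, Benjamini-Hochberg adjusted p under 0.05 over 13552 genes. The sh2Ybx1 libraries inform the spread and the test between hairpins. The SE is approximate: the size of the log2 fold change divided by the root of its F statistic. Alternatives were DESeq2 1.42.0 and limma 3.58.1 on log2(TPM + 1), log2(TPM + 0.1) and log2(FPKM + 1). Fold changes there are on the log2(value + pseudocount) scale, which understates low genes. In simulated counts for this comparison (13439 genes) the test found 0 of 67 true 1.5-fold changes and 11 of 66 true 2-fold changes. It found 55 of 66 true 4-fold changes and made 2 false calls. The simulation gave each gene the same spread in all groups and changed few genes. In these data the coefficient of variation was 0.323 in shNT and 0.0760 in sh1Ybx1, and 2601 genes were called. The simulated shares therefore do not measure how often the test finds a change here.

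The comparison, the 39 gene lists and the tests were chosen with earlier results of these data known. Named genes are Ybx1, the 12 highest and 12 lowest changes at 5 TPM or above on average and with groups that do not overlap (numbered symbols and pseudogenes left out), up to 5 called members per list by adjusted p, the 6 highest and 6 lowest differences between hairpins, and members on which a list turns. Others were chosen after their values were seen: Clec7a, Gm13418, Map4k4 and Hdc. Within a group, every pair of libraries differed in the counts of 13318 genes or more. The authors also deposited log2 fold changes and p-values of both hairpins pooled against control, per the file headers. These and the splicing tables and transcript tables were not used here. Values of some list members are not reported here.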

Additional observations from a re-analysis of the deposited data

Results flagged for a closer look

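A control library far from the other 3 was seen for 13 of 174 genes examined, 10 of them in shNT replicate 4, where chance gives about 1 in 20. In that library Selenbp1 was at 378 and Selenbp2 at 30.3 CPM, Mt1 at 4153 and Mt2 at 3735, Malat1 at 703, Cct2 at 669, Hsp90ab1 at 6287 and Plaur at 5.25, all above the other controls, and Actb at 2092 and Tnfrsf10b at 7.79, both below them. For Mt1 and Mt2, metallothioneins that bind zinc and copper, neither passed in sh1Ybx1 (log2 fold changes -2.69 and -3.82), and without shNT replicate 4 the values were -0.97 and -1.74. In shNT replicate 2 Lcn2 was at 3.27, Ndufa7 at 101 and Rbfox2 at 0.0279 CPM, each the highest control, the last from 1 count.

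A difference between the hairpins that passed the direct test was seen for 19 named genes. On the log2 scale, sh1Ybx1 minus sh2Ybx1, it was 5.60 for Lcn2, 4.91 for Acta2, 4.86 for Ccl3, 3.33 for Ccl6, 2.67 for Clec4e, 2.65 for Plaur, 2.61 for Rras and 2.56 for Cebpd. It was 2.23 for Cnn2, 1.99 for Tpm4, 1.58 for Cebpe, 1.44 for Actg2 and 1.34 for Myl12b. Lower with sh1Ybx1 were Hemgn (-1.54), Slamf1 (-1.44), Frmd6 (-1.37), Anln (-1.24), Plpp2 (-1.22) and Sla2 (-1.12).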

How the results depend on the processing

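Ybx1 kept its direction and passed under every alternative tried (log2 fold change -3.74 to -3.55), and no gene called in sh1Ybx1 against shNT and named in the text changed sign. Of the named genes without a call, Jak2 (-0.16 to 0.03), Stat5a (-0.21 to 0.05) and Il3ra (-0.01 to 0.35) crossed 0 when 1 library was left out, and with limma on 1 or more scales so did these 3 and Mcl1 (0.14 on log2(TPM + 1)). The number of calls did move. Against 2601 calls (1522 higher, 1079 lower), keeping genes at 5 TPM or above on average gave 1429 (722 and 707), fitting the 6 libraries alone gave 1372 (818 and 554), and DESeq2 gave 1845 lower. Limma gave 255 (96 and 159) on log2(TPM + 1), 204 (63 and 141) on log2(TPM + 0.1) and 241 (142 and 99) on log2(FPKM + 1). The median of all genes was -0.10 on TPM. Leaving out 1 library at a time gave 156 to 5902 calls, 133 to 2892 higher and 23 to 3010 lower. Between the hairpins, against 71 calls, DESeq2 gave 791, limma 4 on either TPM scale and 5 on FPKM, and leaving out 1 library 0 to 1666. The causes of these changes were not tested. Genes named in the text and followed through these settings numbered 173, of which 161 had a call to lose. Of 173 genes followed, 133 lost their call without sh1Ybx1 replicate 1 and 111 without replicate 2, 40 with the 6 libraries alone, 0 without shNT replicate 4 and 0 with DESeq2. Limma, which had values for 160 of them, lost 83 on log2(TPM + 1), 97 on log2(TPM + 0.1) and 90 on log2(FPKM + 1). The labels do not say that replicate numbers mark pairs. Deviations of same-numbered libraries correlated at 0.029 and 0.0674, and those of shNT replicate 3 and sh1Ybx1 replicate 2 at 0.125. With 2 sh1Ybx1 libraries the deviations of one mirror those of the other, so these values cannot show whether pairs exist. With the replicate block 6143 genes were called (3117 higher, 3026 lower), and 3060 between the hairpins. Replicates 3 and 4 exist only in shNT, so this fit gives each of these control libraries its own term. The contrast then rests on replicates 1 and 2, and the count cannot show what pairing adds. With 2 sh1Ybx1 libraries, a gene that did not pass may still differ. Changes of about 2-fold were called for few genes in simulation, but the simulated spread and share of changed genes were unlike these data.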

Other observations

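The lists not described above held few calls with all libraries, where 11.2% of all genes rose and 7.96% fell. Of 20 interferon response genes 2 fell, of 15 antigen presentation genes 2 fell, of 14 replication-dependent histone genes 2 rose (median 0.44), and of 29 nucleolar genes 3 fell. Of 7 cold shock domain genes and related RNA binders 2 fell, of 12 small RNA processing genes 1 rose, of 10 small structured RNAs and host genes 2 rose, and of 6 metallothionein and zinc response genes 1 rose. Without shNT replicate 4, where 21.4% of all genes rose and 22.3% fell, the falls numbered 7 for interferon response, 4 for antigen presentation (with 3 rises), 14 for nucleolar genes, 5 for cold shock genes and 4 for metallothionein and zinc response genes (with 1 rise), and 4 histone genes, 4 structured RNA and host genes and 3 small RNA processing genes rose, the last with 2 falls. Few lymphoid genes were tested, with 1 of 4 B lymphoid genes higher and both T and NK cell genes lower. No gene of the 10 in nonsense mediated decay passed in the edgeR fit of all 13552 genes and 8 libraries or by DESeq2. By edgeR 2 of them had an unadjusted p under 0.05. Without shNT replicate 4 this list held 1 rise and 1 fall, and with genes at 5 TPM or above on average 1 rise. The 1 fibroblast gene tested did not pass with all libraries but did without shNT replicate 4 (log2 fold change 3.31).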
